A study of Mus musculus with 12 samples.

Results

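Semaphorins, their plexin receptors and their neuropilin co-receptors were followed in RNA from the whole lungs of C57BL/6J mice that carried an MO4 melanoma under the skin. The genes were chosen by symbol from the protein-coding rows of the count table: every Sema gene of classes 3 to 7, Plxna1 to Plxna4, Plxnb1 to Plxnb3, Plxnc1, Plxnd1, Nrp1 and Nrp2. This gave 31 of 49585 genes, of which 20 were semaphorins, 9 plexins and 2 neuropilins. No measured value entered that rule, but the family was proposed with earlier results of these libraries known, so counts over the family are descriptions and stand beside the share of all genes that changed. Of the 31 genes, 30 had enough counts to be tested. Sema5b did not, with 18 counts over all libraries.

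The 12 libraries formed 4 groups of 3. Mice 2 months old received an antibody against PD-1, the checkpoint receptor that restrains activated T cells (young anti-PD-1 group). Mice 22 months old received 1 of 3 treatments. The aged control group had a rat antibody matched in isotype, the aged anti-PD-1 group had anti-PD-1, and the combination group had anti-PD-1 plus an antibody that binds the receptor of the T cell cytokine IL-21. All were given into the peritoneum, on days 3, 7 and 11 after the tumour cells for anti-PD-1 and control antibody; the days of the anti-IL-21 receptor antibody are not given in the sources used here. Every group bore a tumour, and no young group with the control antibody was analysed here, so age was compared only under anti-PD-1. Whether every library stands for a separate mouse is not stated in the labels, so the p-values reflect the spread between the samples and no more, and that spread may be technical.

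Semaphorins are signalling proteins built around a sema domain. Those of class 3 are secreted, those of classes 4 to 6 span the membrane, and Sema7a is held on the cell surface by a lipid anchor. They bind plexins, whose inner part acts on small GTPases and so on the cytoskeleton and on adhesion. Most class 3 semaphorins reach class A plexins through a neuropilin, and the same neuropilins bind growth factors of the VEGF family. The family is best known for axon guidance, and in the lung for branching of the airways, for the patterning of blood and lymphatic vessels and for contacts of immune cells.

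Counted reads ran from 16021877 to 22058620 per library. Levels are CPM, the share of a library's counts on a common scale (TMM factors of edgeR). Changes are log2 fold changes ± SE from 1 edgeR quasi-likelihood model of all 12 libraries, with 3 libraries a group. A gene is called where its edgeR adjusted p, by Benjamini-Hochberg over the 18556 genes tested, was under 0.05. Libraries of 1 group differed beyond counting noise, with a chi-square per degree of freedom of 9.64 to 48.2. Defining lung genes were present in all libraries, with the surfactant gene Sftpc at 9470 CPM or more and the type 1 cell gene Ager at 1280 or more. Of 6 pigment cell genes, Tyr, Tyrp1 and Dct had at most 3, 14 and 15 counts in a library, while Mlana had 25 to 83, Pmel 38 to 104 and Mitf 207 to 340. Their summed CPM was 14.4 to 19.9 in the young group and 17.4 to 22.0 in the aged groups, and Mlana was called lower with anti-PD-1 than with control antibody in aged lungs (-0.92 ± 0.26, edgeR adjusted p 0.0361). The nerve and Schwann cell genes Nefm, Nefl and Sox10 had at most 3, 4 and 8. Mitochondrially encoded transcripts took 6.05 to 7.22% of counts in the young group, 7.32 to 10.4% in the aged control group, 7.88 to 11.9% under aged anti-PD-1 and 11.5 to 14.9% under the combination. The clock gene Per3 stood at 17.2 to 53.7 CPM in the aged anti-PD-1 libraries and at 7.45 to 14.4 in the 9 others. The part of these differences in the results below was not tested. In whole tissue, fewer cells of a type and less RNA per cell cannot be told apart.

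Per kilobase of exon, the secreted ligands Sema3c and Sema3f led the family, while the secreted Sema3a and Sema3d had means of 3.09 and 1.4 CPM per kb. Sema3c, a class 3 ligand known from heart outflow and vessel development, had the highest mean, 35.1 CPM per kb over the 12 libraries. Sema3f, a ligand of neuropilin 2, followed at 23.8 CPM per kb and the lipid-anchored Sema7a at 21.6. Plxnb2, a receptor of class 4 semaphorins, led the plexins with 19.6 CPM per kb, ahead of the Sema3e receptor Plxnd1 (9.25) and of Plxna1 (7.57), which pairs with neuropilins and also binds Sema6d. Nrp1 stood at 9.41 CPM per kb and Nrp2 at 3.25. The order is a coarse one: of 30 pairs of neighbours in it, 29 had ranges that overlapped over the 12 libraries. At the lower end, Sema5a, Plxna3, Sema6c, Plxnb3 and Sema4g had means of 0.105 to 0.499 CPM per kb, and Sema5b 0.0115.

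**Figure D1:**
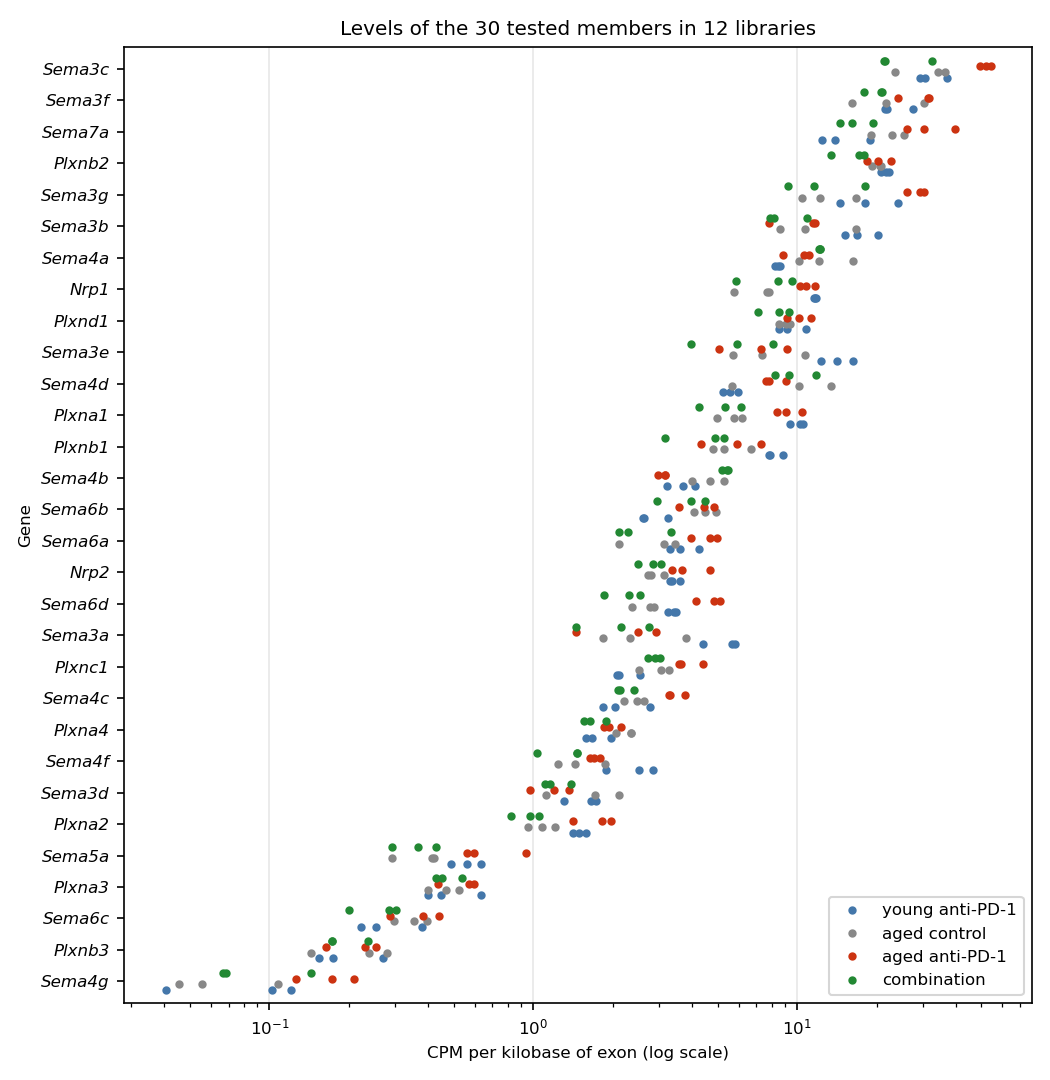
CPM per kilobase of exon (log scale) of the 30 tested genes in each of the 12 libraries, ordered by mean and coloured by group. Sema3c is highest at 21.4 to 54.3 CPM per kb, and the ranges of most neighbours overlap.

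Some of the most abundant genes were called in none of the 4 comparisons described below. Plxnb2 (ENSMUSG00000036606, chromosome 15, 89155549 to 89171120, mm10 as for all positions below) stood at 161, 168 and 172 CPM in the young libraries, 160, 149 and 159 in the aged control, 175, 156 and 142 under aged anti-PD-1 and 133, 104 and 139 under the combination. The 3 combination libraries were below the 9 others, but no change was called (combination against aged anti-PD-1 -0.33 ± 0.12, edgeR adjusted p 0.0851). Plxnd1 (ENSMUSG00000030123, chromosome 6, 115954811 to 115995005) stood at 78.8, 66.8 and 62.6 CPM in young, 66.1, 68.5 and 62.4 in aged control, 82.7, 66.6 and 74.1 in aged anti-PD-1 and 67.9, 52.1 and 62.1 in combination libraries, and the groups overlapped. Sema3f (ENSMUSG00000034684, chromosome 9, 107681500 to 107710475) stood at 143, 112 and 114 CPM in young, 158, 84.1 and 113 in aged control, 164, 163 and 125 in aged anti-PD-1 and 108, 109 and 92.8 in combination libraries. The combination libraries lay below the aged anti-PD-1 ones, by a change that was not called (-0.55 ± 0.19, edgeR adjusted p 0.0890).

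The mean level was highest in the aged anti-PD-1 group for 15 of the 30 tested genes, in the young group for 8, in the aged control group for 5 and in the combination group for 2. Of all 18556 genes tested, 29.6%, 28.4%, 20.8% and 21.2% had their highest mean in these groups. All the comparisons but the last share the 3 aged anti-PD-1 libraries, so their values are given side by side and are not independent of each other.

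In aged against young lungs under anti-PD-1, 3 secreted semaphorins fell and Sema7a, its receptor Plxnc1 and 4 further semaphorins rose. Higher calls numbered 6 of 30, where 8.09% of all genes tested were higher, and lower calls 3 of 30, where 7.16% of all genes were lower. The median log2 change was 0.20 over the family and -0.007 over all genes. The 3 lower calls were all among the 7 class 3 semaphorins, whose other members were Sema3c (called higher) and the uncalled Sema3d, Sema3f and Sema3g. Leaving out aged anti-PD-1 library 1, 2 or 3 gave 5, 4 and 5 called genes in place of 9, and leaving out young library 2 or 3 gave 2. Calls over all genes also fell, from 2830 to 2237, 1905 and 1252 without those aged libraries. Without young library 2 or 3 they fell to 1404 and 1160. Libraries are numbered within a group as in their labels.

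Sema3a (ENSMUSG00000028883, chromosome 5, 13125414 to 13602565), a secreted repellent that acts through Nrp1, stood at 61.0, 80.9 and 78.8 CPM in the young libraries and 40.5, 34.5 and 20.2 in the aged anti-PD-1 libraries. It stood at 52.6, 25.6 and 32.4 CPM in the aged control and at 29.9, 20.1 and 38.2 in the combination libraries. All 9 aged libraries were thus below all 3 young ones, whichever antibody they had received. The change was -1.21 ± 0.30 (edgeR adjusted p 0.0206). The call was lost without aged anti-PD-1 library 3, young library 2 or young library 3 (edgeR adjusted p 0.0683 to 0.0773) and without a filter on low counts (0.0897).

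Sema3e (ENSMUSG00000063531, chromosome 5, 14025276 to 14256689) is secreted too but binds Plxnd1 without a neuropilin and is known as a repellent of endothelial cells. It stood at 114, 132 and 151 CPM in young, 99.7, 53.1 and 68.1 in aged control, 85.3, 67.6 and 46.9 in aged anti-PD-1 and 55.1, 36.7 and 75.2 in combination libraries. Again all aged libraries were below all young ones, with the change under anti-PD-1 at -0.99 ± 0.28 (edgeR adjusted p 0.0347). The call was lost without aged anti-PD-1 library 2 or 3 or young library 2 or 3 (0.0847 to 0.135) and without the filter (0.138).

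Sema3b (ENSMUSG00000057969, chromosome 9, 107597674 to 107609229), known as a secreted tumour suppressor, stood at 72.6, 80.8 and 97.1 CPM in the young and 56.0, 54.8 and 37.3 in the aged anti-PD-1 libraries. These groups did not overlap, while aged control library 1, at 79.9 CPM beside 41.1 and 51.0, reached into the young range. The combination libraries stood at 39.1, 37.6 and 51.9 CPM. The change of -0.76 ± 0.23 (edgeR adjusted p 0.0425) was the least certain of the 3: leaving out any 1 of the 6 libraries compared ended the call (0.0532 to 0.177), as did leaving out the filter (0.151).

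Among the genes that were higher in aged than in young lungs under anti-PD-1, Sema7a and Plxnc1 are a ligand and its receptor. Both are known in leukocyte and fibroblast responses. Sema7a (ENSMUSG00000038264, chromosome 9, 57940112 to 57962865) stood at 62.3, 46.1 and 41.1 CPM in the young and 99.7, 131 and 86.2 in the aged anti-PD-1 libraries, a change of 1.09 ± 0.18 (edgeR adjusted p 0.00275). The aged control libraries lay between, at 83.8, 62.6 and 75.5 CPM, and the combination libraries, at 64.0, 53.3 and 47.9, overlapped the young ones. Plxnc1 (ENSMUSG00000074785, chromosome 10, 94790866 to 94944578) stood at 21.2, 17.3 and 17.6 CPM in the young and 29.9, 30.2 and 36.8 in the aged anti-PD-1 libraries, a change of 0.79 ± 0.13 (edgeR adjusted p 0.00200). It stood at 21, 27.3 and 25.5 CPM in the aged control libraries and 25.2, 22.8 and 24.1 in the combination libraries, so the aged anti-PD-1 libraries were above the 9 others. Both calls held in all 13 alternatives tried for this comparison.

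Sema3c (ENSMUSG00000028780, chromosome 5, 17574281 to 17730268) stood at 264, 218 and 208 CPM in the young and 353, 370 and 387 in the aged anti-PD-1 libraries, a change of 0.69 ± 0.18 (edgeR adjusted p 0.0221). Without library 2 or 3 of either group the call was lost (0.0542 to 0.0873). Sema6d (ENSMUSG00000027200, chromosome 2, 124089969 to 124667770), a transmembrane ligand of Plxna1, stood at 36.2, 34.2 and 36.7 CPM in the young and 53.7, 51.1 and 43.6 in the aged anti-PD-1 libraries, a change of 0.47 ± 0.12 (edgeR adjusted p 0.0210). This call was lost without aged anti-PD-1 library 1 or 2 or young library 2 or 3 (0.0507 to 0.0826). In both genes the young and aged anti-PD-1 libraries did not overlap. The means of the aged control and combination groups were below the young mean. For Sema3c they were 224 and 179 CPM beside 230 in the young group, and for Sema6d 28.2 and 23.5 beside 35.7.

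Sema6b (ENSMUSG00000001227, chromosome 17, 56123085 to 56140343) stood at 12.9, 10.4 and 10.3 CPM in the young and 17.6, 19.2 and 14.1 in the aged anti-PD-1 libraries. The aged control libraries, at 19.5, 17.8 and 16.1 CPM, were also above the young ones, and the combination libraries stood at 11.7, 15.7 and 17.7. Its change was 0.60 ± 0.17 (edgeR adjusted p 0.0284), and the call was lost without aged anti-PD-1 library 1 or 2 or young library 2 or 3 (0.0713 to 0.103). Sema4c (ENSMUSG00000026121, chromosome 1, 36548639 to 36558349), a ligand of Plxnb2, stood at 12.7, 9.36 and 8.43 CPM in the young and 17.3, 15.2 and 15 in the aged anti-PD-1 libraries, which did not overlap. Its change was 0.64 ± 0.16 (edgeR adjusted p 0.0152), and the call was lost without aged anti-PD-1 library 1 or young library 2 or 3 (0.0520 to 0.0694). The aged control and combination means of Sema4c were 11.2 and 10.2 CPM, beside 10.2 in the young group.

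Receptors other than Plxnc1 were not called with age. Nrp1 changed by -0.10 ± 0.15 (edgeR adjusted p 0.730), Nrp2 by 0.18 ± 0.12 (0.346) and Plxna1 by -0.11 ± 0.13 (0.614). The largest uncalled receptor value was that of the Sema4d receptor Plxnb1, at -0.49 ± 0.20 (0.127). Of the ligands, Sema4d, known as CD100 on T cells, stood at 0.55 ± 0.23 (0.135) and Sema3g at 0.59 ± 0.24 (0.121), neither of them called.

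Markers of several cell types differed in the same comparison. Type 1 alveolar markers were called lower in 6 of 7 genes (summed CPM 7850 to 9390 in young and 3040 to 4800 in aged anti-PD-1 libraries), type 2 markers in 8 of 8 (22300 to 27400 and 14600 to 16000) and mesothelial markers in 5 of 5 tested (211 to 355 and 83.1 to 118). Lymphatic endothelial markers were called higher in 5 of 5 tested, at 175 to 217 and 337 to 389 summed CPM, while Ccl21a, the member of that list that was not tested, had at most 2 counts in a library. Platelet markers were called higher in 6 of 6 (166 to 331 and 858 to 912), B cell markers in 5 of 6 (198 to 238 and 393 to 445) and T cell markers in 4 of 6 (41.9 to 53.5 and 50.4 to 121). Blood endothelial markers were called higher in 1 of 10 (2560 to 3040 and 3060 to 3570). Of 7 pericyte and smooth muscle markers, 3 were called lower and 0 higher (785 to 1120 and 631 to 809). Their part in the values of the semaphorins was not tested.

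**Figure D2:**
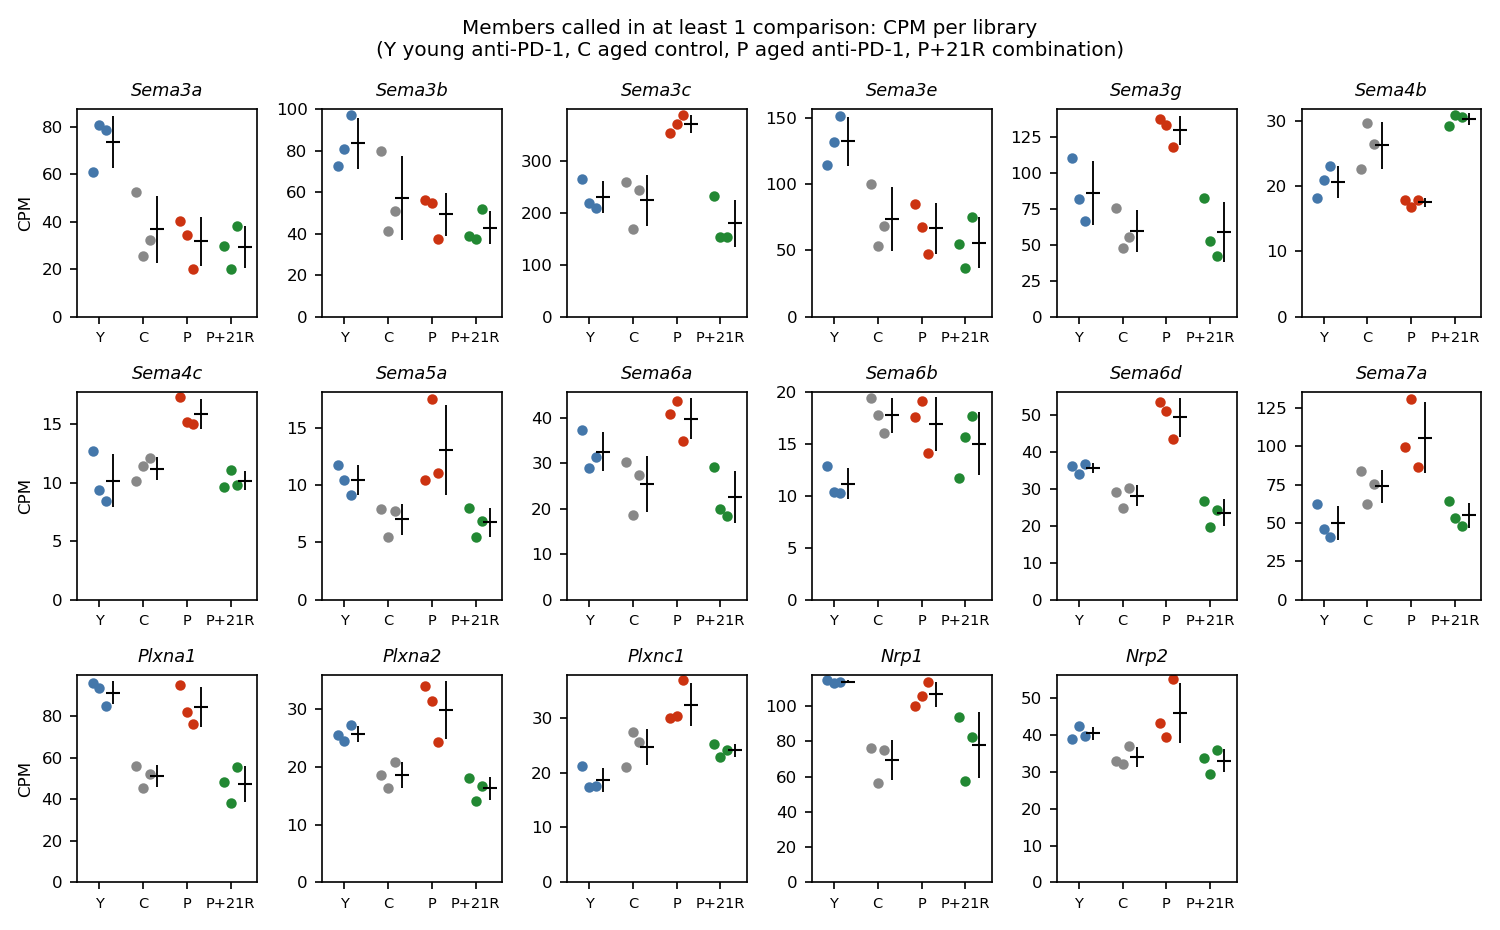
CPM in each library for the 17 genes called in at least 1 comparison; the bar beside each group is the mean with SD of its 3 libraries, and Y, C, P and P+21R stand for young anti-PD-1, aged control, aged anti-PD-1 and combination. Sema3a and Sema3e are high only in the young libraries (61.0 CPM or more, and 114 or more), while Sema3c and Sema6d are highest in the aged anti-PD-1 libraries.

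The second comparison asked what anti-PD-1 changed in aged lungs. Both neuropilins, Plxna1, Plxna2 and 5 semaphorins (Sema3c, Sema3g, Sema5a, Sema6a and Sema6d) were higher with anti-PD-1 than with the control antibody, and Sema4b was lower. Higher calls numbered 9 of 30, where 5.34% of all genes tested were higher, and lower calls 1 of 30, where 5.58% of all genes were lower. The median log2 change was 0.19 over the family and -0.016 over all genes, with 20 genes above 0 and 10 below. Without control library 2, only 2 genes of the family were called (Sema6d and Plxna1). Calls over all genes fell from 2025 to 607 in that fit. Without anti-PD-1 library 2 or 3, 6 of the family were called, with 881 and 715 over all genes. Without control library 1 the higher calls numbered 9 and the lower calls 4, beside 932 and 1063 over all genes.

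The neuropilins moved by less than 2-fold. Nrp1 (ENSMUSG00000025810, chromosome 8, 128358604 to 128503363), co-receptor of class 3 semaphorins and of VEGF-A, stood at 76.5, 56.4 and 75.3 CPM in the aged control libraries and 100, 106 and 114 in the aged anti-PD-1 libraries. The young libraries, at 115, 113 and 114 CPM, were level with the highest of these. The change was 0.62 ± 0.16 (edgeR adjusted p 0.0250), and it lost its call without anti-PD-1 library 2 or 3 or control library 2 (0.0631 to 0.0908). Nrp2 (ENSMUSG00000025969, chromosome 1, 62703285 to 62818695), which serves Sema3f and, in lymphatic vessels, VEGF-C, stood at 33.0, 32.2 and 37.2 CPM in the control and 43.2, 39.6 and 55.2 in the anti-PD-1 libraries. The young libraries stood at 39.1, 42.6 and 39.8 CPM. Its change was 0.43 ± 0.12 (edgeR adjusted p 0.0407). The call was lost without anti-PD-1 library 1 or 3 or control library 1 or 2 (0.0655 to 0.168) and in a fit of these 2 groups alone (0.0915). With anti-PD-1 library 3 left out the change was 0.28.

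Plxna1 (ENSMUSG00000030084, chromosome 6, 89316314 to 89362620) stood at 55.8, 45.2 and 52.0 CPM in the aged control libraries and 94.9, 82.1 and 76.3 in the aged anti-PD-1 libraries, a change of 0.73 ± 0.13 (edgeR adjusted p 0.00740). The call held in all 13 alternatives. The young anti-PD-1 libraries, at 95.7, 93.2 and 84.8 CPM, overlapped the aged anti-PD-1 ones. Plxna2 (ENSMUSG00000026640, chromosome 1, 194618218 to 194816869), a receptor of Sema6a and, with neuropilins, of class 3 ligands, stood at 18.6, 16.4 and 20.8 CPM in the control and 33.9, 31.4 and 24.2 in the anti-PD-1 libraries. The young libraries stood at 25.5, 24.4 and 27.2 CPM. Its change was 0.68 ± 0.14 (edgeR adjusted p 0.0121), lost without control library 2 (0.0533). The 7 other plexins were not called, with changes from -0.19 to 0.39, the latter in Plxnc1 (SE 0.13, edgeR adjusted p 0.0637).

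Of the secreted ligands, Sema3g had the largest called change. Sema3g (ENSMUSG00000021904, chromosome 14, 31217860 to 31230350), a class 3 ligand known in vessel walls, stood at 75.8, 47.5 and 55.3 CPM in the aged control libraries and 137, 133 and 118 in the aged anti-PD-1 libraries. The young libraries, at 110, 81.9 and 66.1 CPM, were below the anti-PD-1 libraries and overlapped the control range. The change was 1.12 ± 0.24 (edgeR adjusted p 0.0168), lost without control library 2 (0.0704) and without the filter (0.0658). Sema3c stood at 259, 168 and 244 CPM in the control libraries, below all 3 anti-PD-1 libraries given above, with a change of 0.73 ± 0.18 (edgeR adjusted p 0.0249). Its call was lost without any 1 of the aged anti-PD-1 libraries or without control library 2 (0.0504 to 0.0828).

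Of the membrane ligands, Sema6d stood at 29.3, 24.9 and 30.4 CPM in the aged control libraries, and its change was 0.81 ± 0.12 (edgeR adjusted p 0.00451), a call that held in all 13 alternatives. The young libraries lay between the control and the anti-PD-1 libraries without overlap. Sema5a (ENSMUSG00000022231, chromosome 15, 32244813 to 32696341), which carries thrombospondin repeats beside its sema domain, stood at 7.89, 5.47 and 7.75 CPM in the control and 10.5, 17.6 and 11.1 in the anti-PD-1 libraries, beside 11.8, 10.5 and 9.12 in the young ones. Anti-PD-1 library 2 was the high one. The change was 0.89 ± 0.22 (edgeR adjusted p 0.0241), lost without that library (0.0936), without control library 2 (0.0873) and in a fit of the 2 groups alone (0.0649). Sema6a (ENSMUSG00000019647, chromosome 18, 47235598 to 47368870), a ligand of Plxna2 and Plxna4, stood at 30.3, 18.6 and 27.4 CPM in the control and 40.9, 43.8 and 34.9 in the anti-PD-1 libraries, beside 37.3, 28.9 and 31.5 in the young ones. It was the weakest of the calls at 0.65 ± 0.19 (edgeR adjusted p 0.0468). It was lost without any 1 of the aged anti-PD-1 libraries or without control library 2 or 3 (0.0679 to 0.144), without the filter (0.0766) and in the fit of the 2 groups alone (0.0669).

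Sema4b (ENSMUSG00000030539, chromosome 7, 80186841 to 80226527), a transmembrane semaphorin known from synapses, went the other way. It stood at 22.6, 29.8 and 26.5 CPM in the aged control libraries and 17.9, 16.8 and 17.9 in the aged anti-PD-1 libraries, which were the lowest of the 12 libraries. The change was -0.58 ± 0.12 (edgeR adjusted p 0.0122), lost without control library 2 (0.0565). The semaphorins that were lower with age, Sema3a, Sema3b and Sema3e, had changes of -0.21 ± 0.30, -0.22 ± 0.23 and -0.14 ± 0.28 here, none of them called (edgeR adjusted p 0.570 to 0.774). Sema4g, at 0.395 to 0.935 CPM in the control and 1.09 to 1.81 in the anti-PD-1 libraries, had the largest estimate, 1.26 ± 0.47, and was not called (0.0937).

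Blood endothelial markers were called higher in 4 of 10 genes in this comparison, at 1850 to 3100 summed CPM in the control and 3060 to 3570 in the anti-PD-1 libraries. Lymphatic markers were called higher in 3 of 5 tested (207 to 230 and 337 to 389 summed CPM). Neutrophil markers were called lower in 5 of 6 (1680 to 2580 and 690 to 985) and mesothelial markers in 5 of 5 tested (207 to 348 and 83.1 to 118). Of 7 pericyte and smooth muscle markers, 3 were called lower and 1 (Notch3) higher (926 to 1250 and 631 to 809). Control library 2, without which 8 of the 10 calls were lost, had the lowest endothelial sum (1850) and the highest neutrophil sum (2580) of its group. The part of these cell types in the values of the receptors and ligands was not tested.

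The next comparison asked what the antibody against the IL-21 receptor changed when added to anti-PD-1. Sema3c, Sema3g, Sema4c, Sema5a, Sema6a, Sema6d, Sema7a, Plxna1, Plxna2 and Nrp2 were lower in the combination group than under anti-PD-1 alone, and Sema4b was higher. Lower calls numbered 10 of 30, where 4.35% of all genes tested were lower, and higher calls 1 of 30, where 4.67% of all genes were higher. The median log2 change was -0.41 over the family and -0.009 over all genes. All 9 plexins had negative estimates, 2 of them called. Without combination library 2, 5 genes of the family were called in place of 11, and 260 of all genes in place of 1674. That library had the highest mitochondrial share (14.9%), haemoglobin share (3.98%) and erythroid marker sum (46800) of its group, and the part of these in the calls was not tested. Without anti-PD-1 library 1 or 2, 7 of the family were called, with 584 and 641 over all genes.

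The start regions of 3 of these genes are shown because Sema6d and Sema3g had the lowest adjusted p and the largest fall among the called ligands and Sema4b alone rose. The sequences come from RefSeq (GRCm38.p6, the same assembly as mm10), run 5′ to 3′ on the plus strand, which is the strand of all 3 genes, and end where the first annotated exon begins. Capitals mark a GC box (GGGCGG on either strand) and, in Sema6d, an E-box (CACGTG). The regions are chr2:124089719-124089968 for Sema6d, chr14:31217623-31217859 for Sema3g and chr7:80186620-80186840 for Sema4b.
Sema6d: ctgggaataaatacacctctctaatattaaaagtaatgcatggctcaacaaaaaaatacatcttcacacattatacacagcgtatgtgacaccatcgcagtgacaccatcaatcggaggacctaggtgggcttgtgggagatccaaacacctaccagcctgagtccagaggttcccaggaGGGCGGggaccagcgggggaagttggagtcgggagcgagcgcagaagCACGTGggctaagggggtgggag
Sema3g: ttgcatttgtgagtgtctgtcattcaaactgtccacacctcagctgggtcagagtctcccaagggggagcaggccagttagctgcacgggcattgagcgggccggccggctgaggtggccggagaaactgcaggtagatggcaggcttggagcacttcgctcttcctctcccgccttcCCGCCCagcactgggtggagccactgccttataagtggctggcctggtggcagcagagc
Sema4b: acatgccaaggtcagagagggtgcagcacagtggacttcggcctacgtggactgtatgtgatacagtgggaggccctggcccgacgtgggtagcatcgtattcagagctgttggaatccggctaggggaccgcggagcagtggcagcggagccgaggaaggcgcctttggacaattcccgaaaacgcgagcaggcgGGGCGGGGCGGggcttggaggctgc

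In Sema6d the GC box begins 70 and the E-box 23 bases before the RefSeq start; in Sema3g the GC box begins 72 bases before it, and in Sema4b 2 overlapping GC boxes begin 54 and 49 bases before it. GC content was 52.4%, 61.6% and 63.8% in the order printed. Of the 31 genes, 26 had an entry in the RefSeq table, and of the 11 called here 5 could be searched over 250 bases before the start (Sema3g, Sema4b, Sema6d, Sema7a and Nrp2). Of the others, Plxna1 had no entry, and the windows of Sema3c, Sema4c, Sema5a and Plxna2 began inside an annotated exon. Sema6a was not searched. The GC box was in 5 of 5, the E-box in 1, and the AP-1 site (TGANTCA), the STAT site (TTCNNNGAA) and the TATA box (TATAAA) in 0. Among 32851 windows of that length in the table, 32.7% held the GC box, 6.02% the E-box, 6.75% the AP-1 site, 7.02% the STAT site and 12.4% the TATA box, on either strand. Those windows were not selected by their distance from annotated exons, as the 5 searched here were, so the shares are not like for like. A match of letters is a description and does not show that a factor binds there.

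Among the ligands, Sema6d stood at 26.8, 19.6 and 24.3 CPM in the combination libraries, against 53.7, 51.1 and 43.6 under anti-PD-1 alone, a change of -1.07 ± 0.13 (edgeR adjusted p 0.00132). Sema3c stood at 231, 153 and 154 CPM in the combination libraries, all below the 353 or more under anti-PD-1 alone, a change of -1.04 ± 0.18 (edgeR adjusted p 0.00701). Both calls held in all 13 alternatives. Sema3g stood at 82.2, 52.6 and 42.1 CPM, a change of -1.13 ± 0.24 (edgeR adjusted p 0.0173), lost without anti-PD-1 library 1 or 2 or combination library 2 (0.0517 to 0.0878) and without the filter (0.0685). Sema7a, with the combination values given above, changed by -0.94 ± 0.18 (edgeR adjusted p 0.0115), lost without combination library 2 (0.0646). The groups did not overlap in these 4 ligands, nor in the other genes called in this comparison. The share of all genes without overlap was not counted.

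Sema5a stood at 7.98, 5.44 and 6.86 CPM in the combination libraries, a change of -0.95 ± 0.22 (edgeR adjusted p 0.0216). It was lost without anti-PD-1 library 2, the high one (0.0825), and without combination library 2 (0.107). Sema6a stood at 29.2, 20 and 18.5 CPM, a change of -0.82 ± 0.19 (edgeR adjusted p 0.0231), lost without anti-PD-1 library 1 or 2 or combination library 2 or 3 (0.0675 to 0.112). Sema4c stood at 10.1, 11.4 and 12.1 CPM in the aged control libraries and 9.61, 11.1 and 9.76 in the combination libraries, so the aged anti-PD-1 libraries were above both. Its change was -0.64 ± 0.16 (edgeR adjusted p 0.0246), lost without anti-PD-1 library 1 or 2 and with each combination library left out in turn (0.0591 to 0.0885).

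Sema4b rose to 29.3, 31.0 and 30.6 CPM in the combination libraries. Its change from anti-PD-1 alone was 0.79 ± 0.12 (edgeR adjusted p 0.00451), and the call held in all 13 alternatives. The 3 combination libraries were above the young libraries (18.2, 20.9 and 23.1 CPM) and reached the highest of the control libraries.

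Among the receptors, Plxna1 stood at 48.3, 38.4 and 55.3 CPM in the combination libraries, a change of -0.83 ± 0.13 (edgeR adjusted p 0.00526), and Plxna2 at 18, 14.1 and 16.7 CPM, a change of -0.88 ± 0.14 (edgeR adjusted p 0.00541). Both calls held in all 13 alternatives. Nrp2 stood at 33.8, 29.6 and 36.0 CPM, a change of -0.47 ± 0.12 (edgeR adjusted p 0.0323). It was lost without anti-PD-1 library 1 or 3 or combination library 1 or 2 (0.0595 to 0.134) and in a fit of the 2 groups alone (0.0616). Nrp1, at 93.7, 57.6 and 82.6 CPM, was below all aged anti-PD-1 libraries but was not called (-0.45 ± 0.16, edgeR adjusted p 0.0806). Plxnc1 was not called either (-0.43 ± 0.13, 0.0532).

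Reads of some of these genes may belong to an overlapping gene, since the strand setting of the counting is not given in the sources used here. Genes on the opposite strand had counts equal to 16.8% of those of Plxna1 (antisense gene Gm26811), 26.8% of those of Sema4c (D430040D24Rik) and 11.5% of those of Plxna4 (Plxna4os1). Gm26811 changed by 0.57 ± 0.20 with anti-PD-1 (edgeR adjusted p 0.0801) and by -0.85 ± 0.20 in the combination (0.0225), while D430040D24Rik and Plxna4os1 were not called in any of the 4 comparisons. For Sema5b, the pseudogene Gm5963 had 372 counts to its 18.

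Blood endothelial markers were called lower in 6 of 10 genes in this comparison, at 3060 to 3570 summed CPM under anti-PD-1 alone and 1900 to 2550 in the combination libraries. Lymphatic markers were called lower in 4 of 5 tested, at 337 to 389 and 163 to 194. Neutrophil markers were called higher in 5 of 6 (690 to 985 and 1560 to 2100) and erythroid markers in 4 of 5 (9960 to 13100 and 19000 to 46800). Of 7 pericyte and smooth muscle markers, 2 were called higher and 1 (Notch3) lower (631 to 809 and 858 to 985). Their part in the values of the family was not tested.

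**Figure D3:**
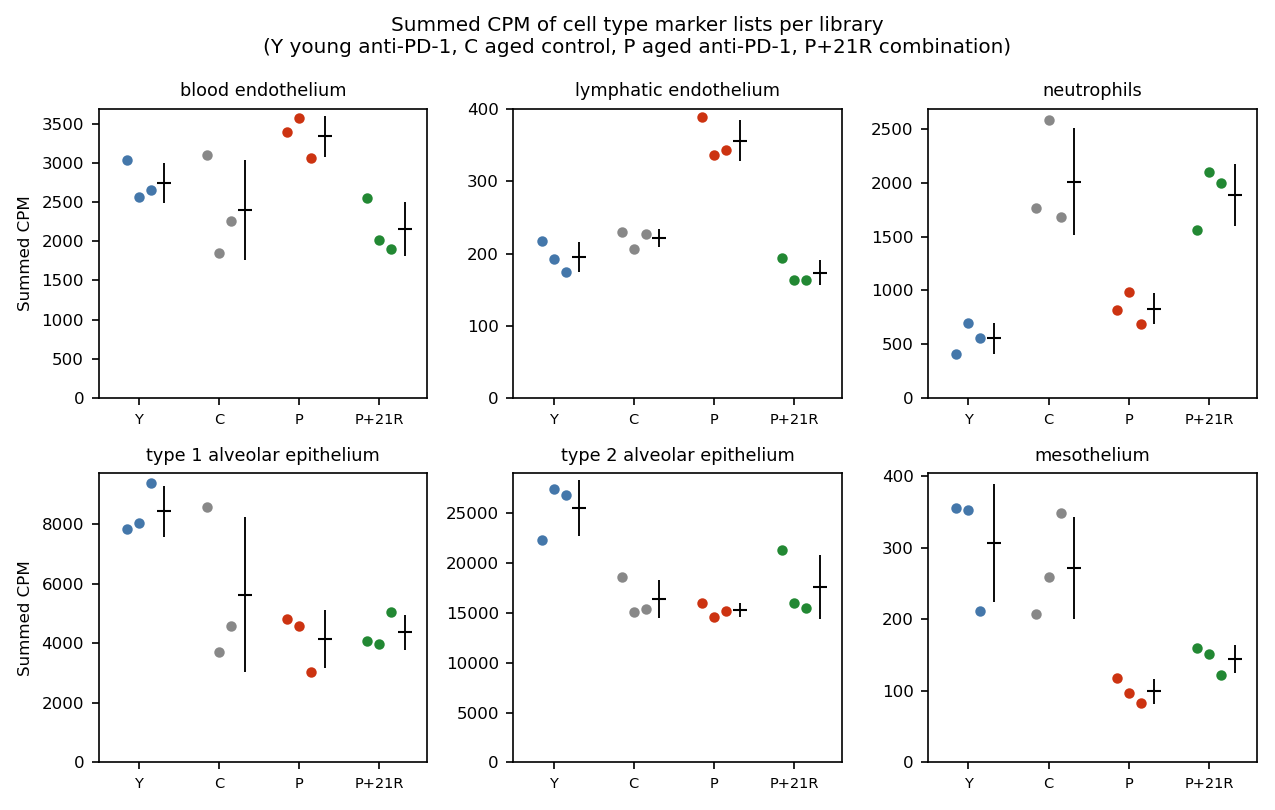
Summed CPM of 6 cell type marker lists in each library, with the mean and SD of each group; Y, C, P and P+21R as for the plot of called genes. Lymphatic endothelial sums are highest in the aged anti-PD-1 libraries (337 to 389), type 2 alveolar sums in the young libraries, and neutrophil sums in the aged control and combination libraries.

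In the last comparison, the combination against the aged control antibody, 0 of the 30 genes were called in either direction. Nor was any of the 18556 genes (0% higher and 0% lower), by the edgeR quasi-likelihood test. At an unadjusted p under 0.05 there were 1228 genes, of which 3 belonged to the family: Plxna4 (-0.41 ± 0.12, edgeR adjusted p 0.447), Plxnb2 (-0.32 ± 0.12, 0.617) and Sema7a (-0.42 ± 0.18, 0.737). DESeq2 called 68 genes here and none of this family. Estimates ran from -0.43 in Sema3d to 0.42 in Sema4g, with 25 below 0 and 5 above, and a median of -0.19 beside -0.009 over all genes. Of the genes that were lower in the combination than under anti-PD-1 alone, Sema7a (above) and Sema3c (-0.32 ± 0.18) had the estimates farthest from 0 against the control. The 8 others had estimates from -0.26 ± 0.13 in Sema6d to -0.01 ± 0.24 in Sema3g. A p above the threshold does not show that these levels were alike.

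**Figure D4:**
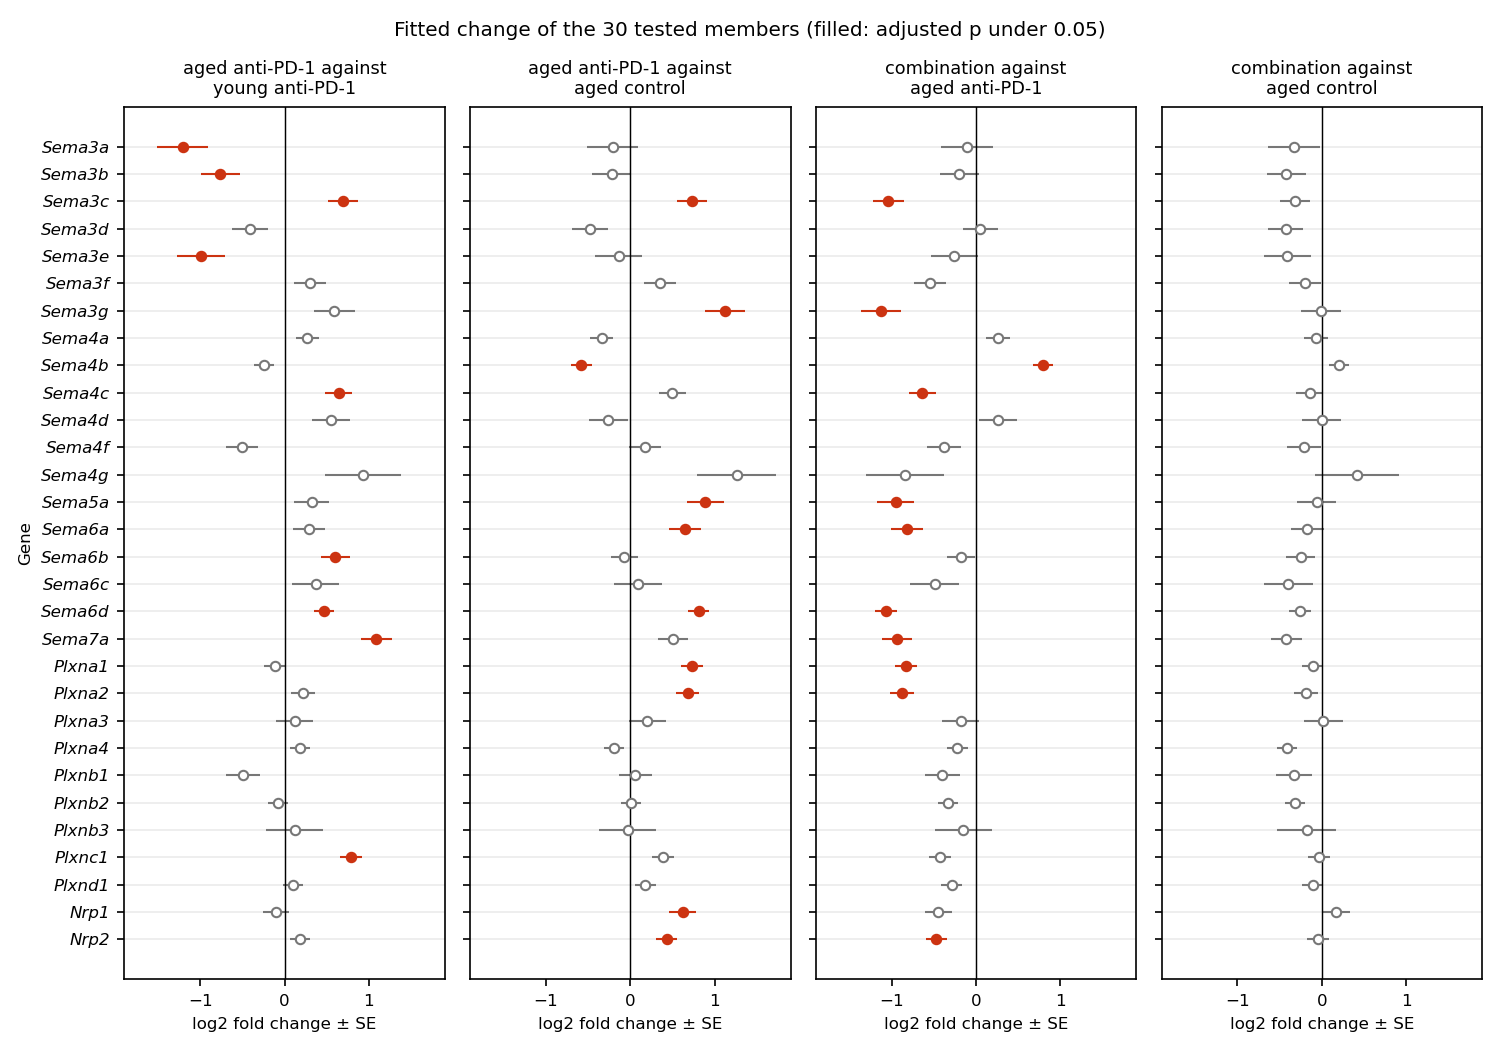
Log2 fold change ± SE of the 30 tested genes in the 4 comparisons, with filled points where the adjusted p was under 0.05. Filled points are mixed in sign for age, mostly positive for anti-PD-1 against control, mostly negative for the combination against anti-PD-1, and absent for the combination against control.

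The genes lie on 17 chromosomes. On chromosome 5, Sema3d, Sema3a, Sema3e and Sema3c follow each other at distances of 0.536, 0.423 and 3.32 Mb, with 0, 1 and 16 coding genes between them. With age these neighbours had changes of -0.41, -1.21, -0.99 and 0.69, so Sema3c moved against Sema3a and Sema3e. On chromosome 9, Sema3b and Sema3f are 0.0723 Mb apart with 3 coding genes between them and had changes of -0.76 and 0.30 with age, of which only the first was called. Plxnb1 lies 1.38 Mb beyond Sema3f (-0.49 with age, not called), and on chromosome X Plxnb3 and Plxna3 are 0.557 Mb apart, with a change of 0.12 each, not called.

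The partners of the family were counted over lists of known genes. Of all genes tested, 8.09% were higher and 7.16% lower with age. With anti-PD-1 against control these shares were 5.34% and 5.58%, and in the combination against anti-PD-1 4.67% and 4.35%. In the combination against control both were 0%. The counts over the lists are descriptions to be read beside these shares. Of 8 enzymes that cut semaphorins or their receptors, Adamts1, which cuts Sema3c, rose with age (0.62 ± 0.14, edgeR adjusted p 0.00964). The convertase gene Pcsk7 rose with anti-PD-1 against control (0.45 ± 0.10, 0.0154) and fell in the combination against anti-PD-1 (-0.47 ± 0.10, 0.0143). The other enzymes of the list, Furin among them, were not called in any comparison. Over the 4 comparisons in order this was 1, 1, 0 and 0 higher and 0, 0, 1 and 0 lower.

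Of 14 tested co-receptors and other semaphorin receptors, 3 were higher and 2 lower with age, 3 higher and 2 lower with anti-PD-1 against control, 1 higher and 3 lower in the combination against anti-PD-1, and 0 in the combination against control. With age the largest changes were a rise of Trem2, which joins Plxna1 in the response to Sema6d on myeloid cells (1.71 ± 0.30, edgeR adjusted p 0.00320), and a fall of Mst1r, a kinase that pairs with class B plexins (-1.06 ± 0.29, 0.0273). With anti-PD-1 against control they were Itga1, part of the integrin that binds Sema7a (0.98 ± 0.20, 0.0133), and again Mst1r (-1.09 ± 0.29, 0.0326). In the combination against anti-PD-1, Itga1 fell (-1.04 ± 0.21, 0.0123) and Tyrobp, the adaptor of Trem2, rose (0.77 ± 0.14, 0.00846).

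Of 29 tested genes that carry the signal inside the cell, 0 were higher and 4 lower with age, 2 higher and 2 lower with anti-PD-1 against control, 2 higher and 1 lower in the combination against anti-PD-1, and 0 in the last comparison. Rnd1, a small GTPase that binds plexins, led in all 3: -1.44 ± 0.26 with age (edgeR adjusted p 0.00426), -1.70 ± 0.26 with anti-PD-1 against control (0.00558) and 1.24 ± 0.26 in the combination against anti-PD-1 (0.0160). Against the direction of Rnd1, Dpysl5, a member of the collapsin response mediator family, was higher with anti-PD-1 than control (0.87 ± 0.22, edgeR adjusted p 0.0242). Mical3, a plexin-linked oxidase, was lower in the combination than under anti-PD-1 (-0.35 ± 0.10, 0.0454).

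Of 5 VEGF family ligands, which neuropilins also bind, Vegfd was higher (0.50 ± 0.16, edgeR adjusted p 0.0429) and 2 were lower with age, Vegfa most (-0.85 ± 0.27, 0.0486). Vegfb was lower with anti-PD-1 than control (-0.53 ± 0.11, 0.0114) and higher in the combination than under anti-PD-1 (0.56 ± 0.11, 0.0109), where Vegfc was lower (-0.72 ± 0.19, 0.0321). None was called in the combination against control.

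Other guidance families were counted in the same way, and the same shares of all genes stand beside their counts. Of 5 tested Slit and Robo genes none was called in any comparison. Of 7 tested netrins and netrin receptors, Unc5a rose (0.82 ± 0.19, edgeR adjusted p 0.0128) and Neo1 fell (-0.76 ± 0.17, 0.00976) with age, and Ntn1 fell in the combination against anti-PD-1 (-0.54 ± 0.15, 0.0340). Of 18 tested ephrins and Eph receptors, 1 was higher and 5 lower with age, 3 higher and 3 lower with anti-PD-1 against control, and 0 higher and 3 lower in the combination against anti-PD-1. The leading ones were Ephb4 (0.64 ± 0.18, 0.0268) and Ephb6 (-1.21 ± 0.25, 0.00652) with age. With anti-PD-1 against control they were Efnb2, the artery ligand of Ephb4 (0.96 ± 0.20, 0.0140), and Efna5 (-0.96 ± 0.26, 0.0340). In the combination against anti-PD-1, Efnb1 led (-1.16 ± 0.19, 0.00556). No ephrin, Eph receptor or netrin gene was called in the combination against control.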

How the data were processed

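The data are raw read counts per gene, deposited by the authors as 1 table with a column per library. Per the submitters' processing notes, the tools were featureCounts 1.6.3, HISAT2, Trimmomatic and bcl2fastq 1.8.4, and the build was mm10; the options, annotation release and strand setting are not given in the sources used here. RNA was purified with Trizol and an RNeasy kit, and the NEBNext Ultra II kit gave directional libraries of poly(A) RNA, per the labels' protocols.

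Genes were kept by filterByExpr of edgeR by group (minimum count 10, minimum total 15), which left 18556 of 49585. TMM-scaled counts of the 12 libraries entered 1 quasi-likelihood model with 4 group means and robust dispersion (edgeR 4.0.16, limma 3.58.1, R 4.3.3), with 8 residual degrees of freedom and a common biological coefficient of variation of 0.156. Tests were two-sided F tests, adjusted by Benjamini-Hochberg over the genes tested. The SE was derived from each log2 fold change and its F statistic (absolute change over root F). An exact permutation test of 3 against 3 libraries cannot give a p below 0.1 and was not used. The script was tested on simulated data.

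CPM per kb used exon lengths from GENCODE M21, which matched all 31 genes by identifier. Only 26 of them had the same coordinates there as in the deposited table, so the lengths of the rest are less certain. The genes, the lists of partners and the cell type markers were chosen with earlier results of these data known. Values in every library are printed for genes called in any comparison and for the 3 semaphorins, 3 plexins and both neuropilins with the highest level per kb; of each partner list the leading called gene in each direction is named. Alternatives were RLE factors, DESeq2 1.42.0, no filter, a filter at 1 mean CPM, a block for replicate number, scaling without genes of immunoglobulin, haemoglobin and mitochondria, leaving out each library, and fits restricted to the groups compared. Plots used matplotlib 3.10.9 under Python 3.11.15.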

Additional observations from a re-analysis of the deposited data

How the results depend on the processing

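No called gene changed its direction in any alternative. Of 30 calls, 9 held throughout and 21 were lost at least once, as printed beside each gene. Called genes numbered 9 with age, 10 with anti-PD-1 against control and 11 in the combination against anti-PD-1. Leaving out 1 library at a time gave 2 to 9, 2 to 13 and 5 to 10 in that order, and 0 throughout for the combination against control. Calls over all genes numbered 2830, 2025 and 1674 in the main fit of the first 3 comparisons. With 1 library left out they numbered 1160 to 2237, 607 to 1995 and 260 to 1439. Leaving out the filter gave 6 (6 higher and 0 lower), 8 and 11, fits of only the groups compared 11, 7 and 11, and DESeq2 9, 13 and 12. The counts over all genes were 2475, 1847 and 1598 without the filter. They were 3742, 881 and 1444 in fits of only the groups compared, and 3461, 2972 and 2528 with DESeq2. With replicate number as a block the counts were 9 (7 higher and 2 lower), 10, 11 and 0, and Sema3b missed its call with age (edgeR adjusted p 0.0588). Same-numbered libraries of different groups had residuals that correlated at a median of -0.0120 (18 pairs, -0.169 to 0.171), and 3 of 12 libraries correlated best with their own number, so the numbers were not taken as pairs. Over all genes, the combination against control gave 11 calls without the filter, 13 without the first combination library and 68 with DESeq2. Sema4g, at 0.350 to 1.81 CPM, had the widest SE of the 30 tested genes of the family (0.45 to 0.50).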
